A study of Rattus norvegicus with 6 samples.

Results

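Cytosolic ribosomal protein genes were taken from the count table by symbol, as those that begin with Rpl or Rps and a number, with Rplp0, Rplp1, Rplp2 and Rpsa, leaving out the Rps6k kinases and names that contain -ps. The rule took 88 of 22601 rows, 53 of the large subunit, 34 of the small subunit, and Rps19bp1, which encodes a protein that binds Rps19 and is not itself a ribosomal protein. Of these, 77 are the main gene of a ribosomal protein, and 10 are paralogs or gene copies such as Rpl3l and Rps10l1. Each library was made from the ventral hippocampus of a separate male rat of the outbred Sprague Dawley stock, 22 months old in the aged group and 4 months old in the adult group. Each group held 3 rats drawn at random from 10 that had been through the Morris water maze, a test of spatial memory, and no further treatment is named in the labels. Library totals were 12476758 to 15400405 counts in aged rats and 14637811 to 15689921 counts in adult rats. All 10 markers of hippocampal fields that were looked up were in the table, with summed levels of 527 to 657 CPM (counts scaled to a common library size, here with TMM factors) in aged rats and 605 to 941 CPM in adult rats.

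The cytosolic ribosome joins a small subunit, which reads the messenger RNA, to a large subunit, which links amino acids into protein. Its proteins are needed in near equal amounts, and their mRNAs are among the most abundant in nearly every cell. In mammals these mRNAs typically begin with a C followed by a run of pyrimidines, the terminal oligopyrimidine tract, through which the kinase mTOR and the RNA-binding protein Larp1 control their translation together. In neurons, mRNAs of ribosomal proteins are present in the cell body and also in dendrites and axons.

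The start of the transcript is the sequence feature for which these mRNAs are known as a group. The bases around the annotated start are therefore shown for 10 of the members named in the results. RefSeq entries of build GRCr8, which is not the build of the count table, were matched by symbol for 85 of the 88 rows, and 69 had a promoter sequence. Each line gives 10 bases before the start and 20 from it on, 5′ to 3′. Capitals mark a C and at least 4 pyrimidines in a row that begin at the annotated start. The 10 are examples, and such a run is more frequent among them than over all main genes, whose share is given below.
Rpl31: atccctcgcgCCTTTCCTTTCCaacttggg
Rpl37: ggcgtactttCTCTTCCggtctctttggcc
Rplp0: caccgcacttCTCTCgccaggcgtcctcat
Rplp1: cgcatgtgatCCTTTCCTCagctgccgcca
Rpl22: gcgcccccctCCCTTTCTgcctcctctgcc
Rpl35a: tcttgccttcCTCTTTCCgccatcttggcg
Rps3a: gtacttccgcCCTTTTggctctcagagcgg
Rpl12: aacatccgtcttttcggctttcggttcgga
Rps28: ccctgctcacgtgactcctctccgctagat
Rpl41: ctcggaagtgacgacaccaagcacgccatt
In GRCr8 the windows are chr9:49143101-49143130 on the plus strand for Rpl31, chr2:55942935-55942964 on the plus strand for Rpl37, chr12:46718371-46718400 on the minus strand for Rplp0, chr8:71290853-71290882 on the minus strand for Rplp1 and chr5:168117951-168117980 on the plus strand for Rpl22. Those of the others are chr11:81235002-81235031 on the minus strand for Rpl35a, chr2:173827023-173827052 on the minus strand for Rps3a, chr3:36661930-36661959 on the plus strand for Rpl12, chr7:15311314-15311343 on the minus strand for Rps28 and chr7:1563478-1563507 on the minus strand for Rpl41. Each spans the end of the upstream sequence and the first bases of exon 1.

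Such a run began at the annotated start in 24 of 62 main genes with a promoter sequence (38.7%), against 722 of 27457 promoters in the RefSeq table (2.63%). Its length was between 5 and 12 bases, with a median of 7.5. Allowing the run to begin within 5 bases of the annotated start gave 40 of the 62 genes (64.5%), against 17.0% of all promoters. Rpl12 and Rps28 are among these, and Rpl41 is not. Of the paralogs and Rps19bp1, 7 had a promoter sequence, and none of the 7 had the run at the start. The median log2 fold change, aged minus adult, was -0.16 over the 24 genes with the run at the start and -0.15 over the 36 tested main genes without it there. These 36 include genes with a run within 5 bases, such as Rpl12 and Rps28. The 2 medians therefore do not compare genes with and without a tract.

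Other short words were searched on both strands in the 300 bases from 250 before to 50 after the start. CCGGAAG, the core word bound by Ets family factors such as Gabpa, was in 20 of the 62 main genes (32.3%), against 9.22% of all promoters. The palindromic word bound by Banp in mouse and human cells, a CGCG core with 3 fixed bases on each side, was in 8 (12.9%), against 0.433% of all promoters. The 8 genes were Rpl4, Rpl10a, Rpl17, Rpl26, Rps6, Rps7, Rps19 and Rps28. GGGCGG, a word bound by Sp1, was in 36 (58.1%), against 34.9%, and AANATGGC, a word bound by Yy1, was in 9 (14.5%), against 7.36%. TATAAA was in 6 (9.68%), against 14.3%. None of these words contains another, and a match describes the letters and not binding.

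The main genes had high levels within a limited range. On the scale of FPKM, which divides by gene length and library total, 71 of the 77 main genes had a mean of at least 100 FPKM over the 6 libraries, with a median of 450.4 FPKM. The lowest of the 71 was Rpl18 at 153.9 FPKM and the highest was Rps29 at 1328 FPKM, an 8.63-fold range. Rps29, a zinc-binding protein of the small subunit head, stood at 1073, 1649.9 and 1024 FPKM in aged rats and 1579, 1284 and 1357 FPKM in adult rats. Rpl41, the smallest ribosomal protein, stood at 817, 1292 and 841 FPKM in aged rats and 1346, 1008 and 1165 FPKM in adult rats. Both were highest in aged replicate 2 and adult replicate 1. Rpl37, Rpl35 and Rpl31, all of the large subunit, followed with means of 1051, 979 and 964 FPKM. From Rpl41 to Rpl31, the values of each gene overlapped with those of the next in both age groups.

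The remaining 6 main genes, Rplp2, Rpl7a, Rpl35a, Rps6, Rpl8 and Rps9, had means below 100 FPKM although each encodes a protein of the ribosome. Rps9, whose counterpart in yeast helps to keep decoding accurate, had 0, 1 and 0 counts in aged rats and 0, 1 and 0 counts in adult rats. Rpl8, a protein beside the catalytic centre of the large subunit, had 1, 4 and 1 counts in aged rats and 3, 1 and 0 counts in adult rats. Rps6, the protein phosphorylated by the S6 kinases downstream of mTOR, had 12, 15 and 10 counts in aged rats and 4, 6 and 8 counts in adult rats. With the copy Rpl30l1, which had at most 3 counts in a library, they are the 4 rows that did not pass the filter on low counts, and they have no test. Each aged count of Rps6 was above each adult count, at 4 to 15 counts per library.

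Rpl35a, a large subunit protein whose gene carries the pyrimidine run shown above, had 12, 10 and 12 counts in aged rats and 15, 21 and 17 counts in adult rats. Rpl7a, also of the large subunit, had 55, 54 and 62 counts in aged rats and 69, 59 and 70 counts in adult rats. Rplp2, which forms the flexible stalk of the large subunit with Rplp1 on the base Rplp0, had 55, 320 and 81 counts in aged rats and 74, 572 and 256 counts in adult rats. Rpl35a and Rpl7a were low in every library, and Rplp2 differed several-fold between libraries of the same age, highest in replicate 2 of both. Rplp2 averaged 26.9 ± 28.7 FPKM in aged rats and 45.3 ± 37.1 FPKM in adult rats (SD, n = 3 each). Its partner Rplp0 averaged 427 ± 72.7 FPKM in aged rats and 460.0 ± 14.7 FPKM in adult rats, and Rplp1 averaged 774 ± 129 FPKM in aged rats and 914 ± 141 FPKM in adult rats. Rplp2 stood at 8.38, 59.9 and 12.3 FPKM in aged rats and 11.8, 85.2 and 38.8 FPKM in adult rats, below both partners in every library. How reads that fit both a gene and its copies were assigned is not given in the sources used here, so values of genes with near-identical copies are uncertain. GRCr8 names 1097 copies of the 77 genes as pseudogenes or like forms, between 5 and 21 for each of the 6 genes at low levels (median 13) and between 1 and 36 for each of the other 71 (median 15).

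**Figure D1:**
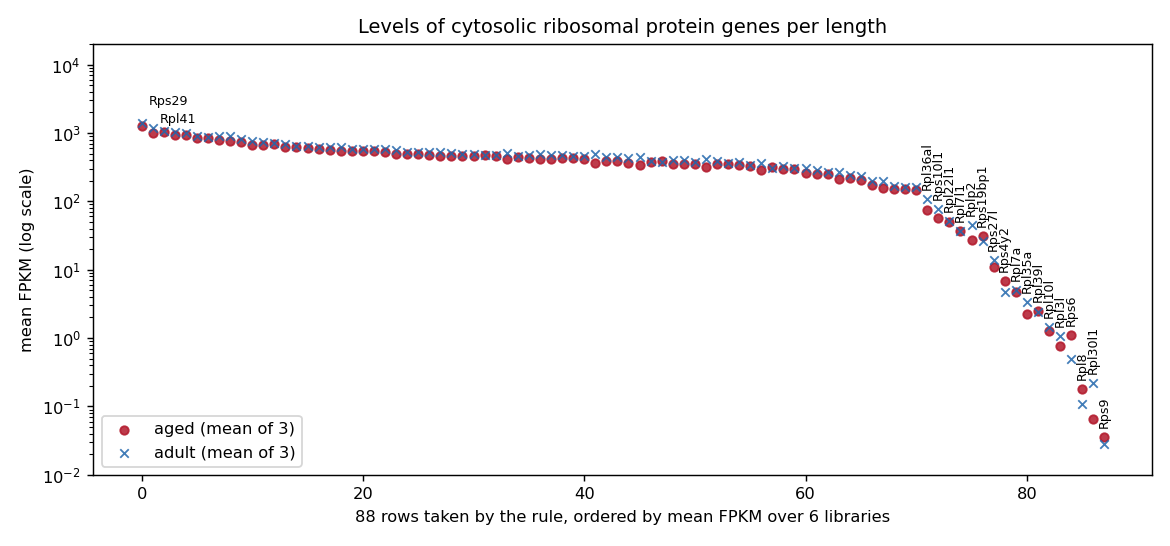
Mean FPKM (log axis) of each of the 88 rows, ordered from high to low by the mean over the 6 libraries, with aged means as filled circles and adult means as crosses (3 rats each). A plateau of 71 main genes has means over the 6 libraries between 153.9 and 1328 FPKM, and the 17 labelled rows on the right, paralogs, Rps19bp1 and 6 main genes, have means below 100 FPKM.

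Paralogs were lower than their main gene in each of the 8 pairs that were compared. Rpl3l, which replaces Rpl3 in heart and skeletal muscle of mice, averaged 0.760 ± 0.200 FPKM in aged rats and 1.06 ± 0.261 FPKM in adult rats (SD, n = 3 each). Rpl3 averaged 476 FPKM over the 6 libraries. Rpl3l stood at 1.33, 0.964 and 0.751 CPM in aged rats and 1.16, 1.26 and 1.87 CPM in adult rats, and 5 skeletal muscle markers summed to 114, 31.7 and 69.7 CPM in aged rats and 111, 107 and 339 CPM in adult rats. Adult replicate 3 was highest for both, and the part of muscle transcripts in the Rpl3l values was not tested. Rpl10l, a paralog known from the testis of mice, averaged 1.35 FPKM over the 6 libraries beside 383 FPKM for Rpl10, and Rpl39l, likewise known from the testis, averaged 2.46 FPKM beside 329 FPKM for Rpl39. Rpl39l stood at 0.333, 3.13 and 0.313 CPM in aged rats and 1.71, 0.316 and 1.73 CPM in adult rats, so that libraries of the same age differed several-fold, at 5 to 39 counts per library.

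The paralogs nearest to their main gene were Rpl36al and Rpl22l1. Rpl36al averaged 75.8 ± 21.8 FPKM in aged rats and 109 ± 31.6 FPKM in adult rats, and Rpl36a averaged 152 ± 45.8 FPKM in aged rats and 164 ± 29.6 FPKM in adult rats (SD, n = 3 each). Rpl22l1 averaged 49.1 ± 11.4 FPKM in aged rats and 51.0 ± 16.6 FPKM in adult rats, and Rpl22 averaged 159 ± 36.6 FPKM in aged rats and 197 ± 29.0 FPKM in adult rats. Both pairs encode near-identical or closely related large subunit proteins. Rpl7l1 averaged 37.1 FPKM over the 6 libraries beside 490.1 FPKM for Rpl7. Rps27l, a p53 target in human cells, averaged 12.3 FPKM beside 402 FPKM for Rps27. Rps4y2 averaged 5.82 FPKM beside 359 FPKM for Rps4x.

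The age comparison asks whether the levels of these mRNAs differ between aged and adult hippocampus. No member passed the test, and the summed level of the family was spread more widely among rats of the same age than the means of the ages lay apart. In bulk tissue, fewer cells of a type and less RNA per cell cannot be told apart. The 84 tested members summed to 18972, 27913 and 18450 CPM in aged rats and 27000, 21042 and 24532 CPM in adult rats. Aged replicate 2 was the highest of the 6 libraries and aged replicates 1 and 3 were the lowest, so that aged values lie on both sides of all adult values. The sums averaged 21778 ± 5319 CPM in aged rats and 24191 ± 2993 CPM in adult rats (SD, n = 3 each), a log2 ratio of -0.15. Without aged replicate 2 the log2 ratio was -0.37. The members made up 1.86%, 2.79% and 1.91% of all counts in aged replicates 1 to 3 and 2.70%, 2.12% and 2.39% in adult replicates 1 to 3.

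**Figure D2:**
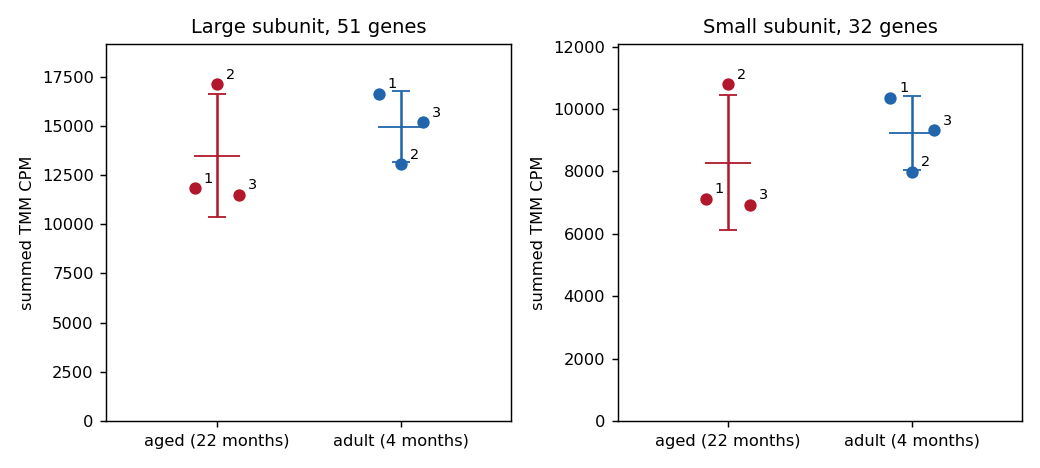
Summed CPM per library of the 51 large and 32 small subunit genes that were tested, aged left and adult right, with replicate numbers, and with bars at the mean ± SD of 3 rats. In both subunits aged replicate 2 stands above every adult library and aged replicates 1 and 3 below every adult library.

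Both subunits had the same order of libraries. Large subunit genes summed to 11839, 17101 and 11501 CPM in aged rats and 16622, 13034 and 15187 CPM in adult rats. Small subunit genes summed to 7119, 10792 and 6935 CPM in aged rats and 10365, 7994 and 9329 CPM in adult rats. In each subunit the order from high to low was aged replicate 2, adult replicates 1, 3 and 2, and aged replicates 1 and 3. The median log2 fold change was -0.15 over the 51 large subunit genes, of which 50 were below 0, and -0.18 over the 32 small subunit genes, of which 30 were below 0.

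With edgeR's quasi-likelihood test, 0 of 84 members reached an adjusted p (Benjamini-Hochberg over 14588 genes) under 0.05, against 0.0% of all genes, and the smallest adjusted p was 0.99996 over the members and 0.510 over all genes. At an unadjusted p under 0.05 there were 2 members, both lower in aged rats, against 3.45% of all genes, of which 2.27% were lower and 1.18% higher. DESeq2 called 0 members, against 0.213% of all genes, and had 3 members at an unadjusted p under 0.05, against 3.4% of all genes. Limma-voom called 0 members, against 0.0%, and had 2 at an unadjusted p under 0.05, against 3.41%. The members' share at an unadjusted p under 0.05, 2.38% with edgeR, was near that of all genes.

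The fold changes were small and nearly all on the same side. Of 84 members, 80 had a log2 fold change below 0, against 50.5% of all genes tested. The median was -0.16, against -0.0022 over all genes, with quartiles of -0.23 and -0.10 and a range of -0.77 (Rplp2) to 0.54 (Rps4y2). Of the members, 71 lay within 0.3 of 0, and the median standard error was 0.20. With RLE, upper-quartile and library size scaling, 79, 79 and 78 members were below 0, against 49.0%, 49.6% and 46.6% of all genes. The members are not separate observations of the age difference. Over the 6 libraries, the median Pearson correlation between pairs of the 71 abundant main genes was 0.949 on log2 CPM, a description over 2485 pairs that share the same libraries.

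The size of the median and the counts depended on single libraries, while the median stayed below 0 with any 1 library left out. Without adult replicate 3 the log2 ratio of the summed CPM was -0.14. The median log2 fold change was -0.05 without aged replicate 1, -0.04 without aged replicate 3, -0.06 without adult replicate 1, -0.38 without aged replicate 2 and -0.26 without adult replicate 2. Without aged replicate 2, 43 of 85 tested members had an unadjusted p under 0.05 by edgeR, against 4.38% of all genes, and 71 of 84 had each aged value below each adult value, against 11.1% of all genes. Without adult replicate 2 these counts were 6 members, against 5.22%, and 8 members, against 10.4%. At an unadjusted p under 0.05 there was 1 member without aged replicate 1 (Rpl30, against 2.73% of all genes) and 1 without adult replicate 1 (Rps4y2, against 4.14%). There were 0 without aged replicate 3, against 3.6%, and 0 without adult replicate 3, against 2.78%. The number of members with a log2 fold change below 0 was 56 of 85 without aged replicate 1, against 48.2% of all genes, 58 without aged replicate 3, against 51.5%, and 62 without adult replicate 1, against 48.4%. It was 82 without aged replicate 2, against 50.0%, 80 without adult replicate 2, against 51.3%, and 76 without adult replicate 3, against 46.7%. No member was called over all genes in any of these 6 fits.

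Most members ranked the libraries alike. Aged replicate 2 and adult replicate 1 were the highest 2 libraries in 63 of 84 members, against 11.6% of all genes tested, and aged replicates 1 and 3 were the lowest 2 in 71 members, against 8.23%. Aged replicate 2 was the highest library in 49 members and adult replicate 1 in 31. Aged replicate 3 was the lowest in 56 members and aged replicate 1 in 24. After subtracting each gene's mean over the 6 libraries on the log2 CPM scale, the median over the members was -0.26, 0.30 and -0.32 in aged replicates 1 to 3 and 0.25, -0.11 and 0.12 in adult replicates 1 to 3. Among the abundant main genes, the highest library was between 1.26-fold (Rpl3) and 2.30-fold (Rps19) above the lowest, with a median of 1.58-fold.

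Other short genes deviated with the same sign as the ribosomal protein genes in every library. The tested members are short, from 296 bases for Rpl39 to 2507 bases for Rpl7l1. The median deviation of 23 members under 500 bases was -0.30, 0.31 and -0.34 in aged and 0.33, -0.13 and 0.17 in adult rats. For 45 members of 500 to 1000 bases it was -0.26, 0.31 and -0.30 in aged and 0.25, -0.12 and 0.10 in adult rats. For 16 members of 1000 bases or more it was -0.21, 0.24 and -0.27 in aged and 0.20, -0.08 and 0.10 in adult rats. For 3182 other genes of 1000 to 2000 bases it was -0.02, 0.09 and -0.11 in aged and 0.05, -0.05 and 0.05 in adult rats. The median deviation of 115 other genes of under 500 bases was -0.18, 0.19 and -0.28 in aged replicates 1 to 3 and 0.31, -0.16 and 0.12 in adult replicates 1 to 3. For 751 other genes of 500 to 1000 bases it was -0.10, 0.16 and -0.21 in aged replicates 1 to 3 and 0.18, -0.13 and 0.12 in adult replicates 1 to 3. For 5259 other genes of 4000 bases or more it was 0.02, -0.09 and 0.08 in aged replicates 1 to 3 and -0.03, 0.04 and -0.02 in adult replicates 1 to 3, of the opposite sign in all 6 libraries.

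**Figure D3:**
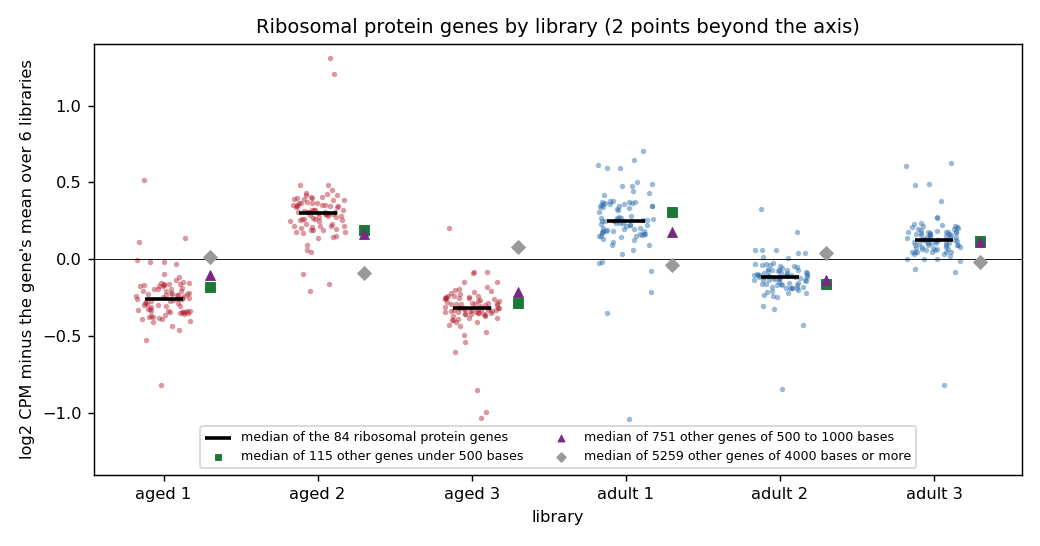
Log2 CPM of each of the 84 tested members minus its mean over the 6 libraries, as points per library with a black bar at their median, and the medians of other genes in 3 length classes beside them (2 points lie beyond the axis). The medians of the members and of both short gene classes lie above 0 in 3 libraries (aged 2, adult 1, adult 3) and below 0 in the other 3, and the median of the longest genes is on the other side of 0 in every library.

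Gene length also went with the age difference. The median log2 fold change, aged minus adult, was -0.20 over the 115 other genes under 500 bases, -0.10 over 751 of 500 to 1000 bases, -0.03 over 3182 of 1000 to 2000 bases, 0.01 over 5197 of 2000 to 4000 bases and 0.02 over the 5259 longest. Among the members it was -0.20 over 23 genes under 500 bases, -0.14 over 45 of 500 to 1000 bases and -0.15 over 16 longer ones. When each library was corrected for its trend with gene length, the median over the members was -0.04, and 53 of 84 were below 0, against 48.5% of all genes. The trend was fitted over all genes tested, members included, so the correction can also remove part of the members' own pattern. The part of the length trend in the values of single members was not tested beyond this correction.

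**Figure D4:**
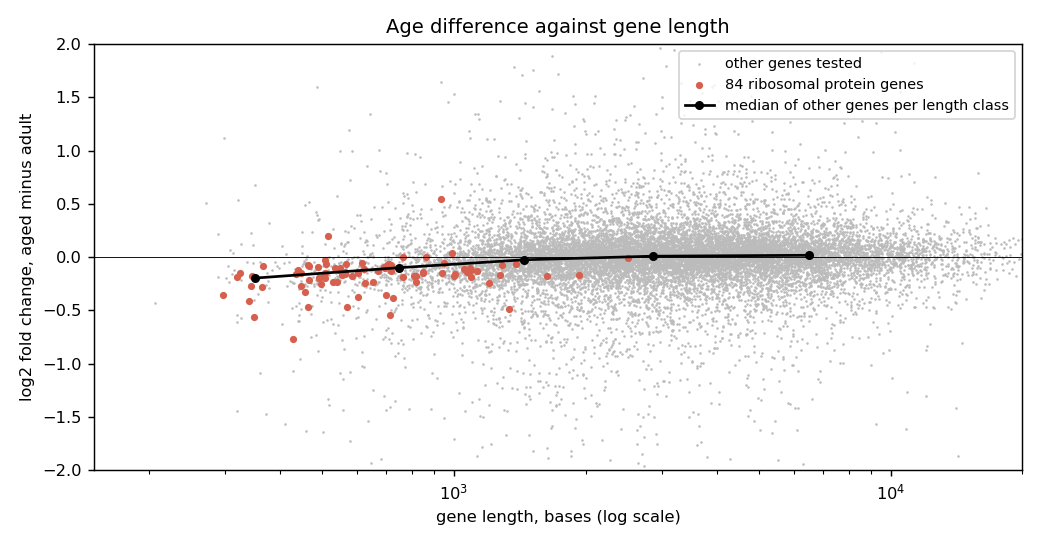
Log2 fold change of each gene tested, aged minus adult, against gene length on a log axis, with the 84 members in colour, the other genes in grey and a line through the median of the other genes in each of 5 length classes (74 genes lie beyond the axes, 0 of them members). The members lie mostly below 0 at the short end, where the medians of other genes are also below 0.

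Rpl30 and Rpl12, both of the large subunit, were the members at an unadjusted p under 0.05. Rpl30, which in yeast represses splicing of its own transcript, stood at 179, 184 and 141 CPM in aged rats and 267, 192 and 238 CPM in adult rats. All aged values were below all adult values, and aged replicate 2, the highest library for most members, was below adult replicate 2. The log2 fold change of Rpl30 was -0.47 ± 0.16 (SE), with an edgeR adjusted p of 0.99996. As a share of the summed members, Rpl30 was 0.943, 0.658 and 0.766% in aged rats and 0.990, 0.914 and 0.970% in adult rats. The share in aged replicate 1 was inside the adult range, and those in aged replicates 2 and 3 were below it.

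Rpl12, a protein at the base of the stalk, stood at 202, 271 and 219 CPM in aged rats and 325, 274 and 304 CPM in adult rats. The groups did not overlap, and the highest aged value was close to the lowest adult value. The log2 fold change of Rpl12 was -0.38 ± 0.15, with an edgeR adjusted p of 0.99996. Rpl35a had a log2 fold change of -0.56 ± 0.38 at 10 to 21 counts per library. Rpl30, Rpl12 and Rpl35a are the tested members whose groups did not overlap, 3 lower in aged rats and 0 higher. Of all genes tested, 4.43% did not overlap and were lower, 3.13% were higher and 7.56% lay in either direction. The tested members' share, 3.57%, was not above that of all genes. The untested row Rps6 also did not overlap, higher in aged rats, at the low counts given above. Under the length correction the log2 fold change was -0.28 for Rpl30 and -0.27 for Rpl12. Over the 18 alternatives it lay between -0.59 and -0.28 for Rpl30 and between -0.51 and -0.27 for Rpl12, with adjusted p-values of 0.782 or more for Rpl30 and 0.923 or more for Rpl12 (edgeR, DESeq2 or limma).

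The other members with low p-values overlapped between ages. Rpl36al stood at 46.0, 72.4 and 43.6 CPM in aged rats and 104, 60.4 and 71.8 CPM in adult rats, a log2 fold change of -0.54 ± 0.25. Rps28, a small subunit protein near the exit of the messenger RNA channel, stood at 101, 144 and 94.9 CPM in aged rats and 200.4, 109.8 and 144 CPM in adult rats, a log2 fold change of -0.41 ± 0.24. Adult replicate 1 was the highest library for both, and aged replicate 2 lay within the adult range. Rps10l1, annotated as a pseudogene in GRCr8, stood at 25.2, 41.9 and 28.2 CPM in aged rats and 51.0, 32.7 and 47.7 CPM in adult rats, a log2 fold change of -0.47 ± 0.24. Rpl22, a large subunit protein that also binds some viral and cellular RNAs, averaged 72.2 ± 16.8 CPM in aged rats and 90.4 ± 13.7 CPM in adult rats (SD, n = 3 each). Rpl39, a protein that lines the exit tunnel for the new chain, had a log2 fold change of -0.36 ± 0.22, and Rps13, a small subunit protein, of -0.24 ± 0.15. Each of these 6 members had an edgeR adjusted p of 0.99996.

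Rps4y2, Rps19bp1, Rpl6 and Rps3a were the 4 members with a log2 fold change above 0, and 0 of them passed the test. Rps4y2 stood at 5.79, 7.47 and 6.07 CPM in aged rats and 6.15, 4.36 and 2.73 CPM in adult rats, a log2 fold change of 0.54 ± 0.33. Adult replicate 1 lay within the aged range, and the other adult values lay below it. In GRCr8 the span of Rps4y2 overlaps that of Tmtc1, and whether counting used strand is not given, so reads of these genes may be mixed. Only gene spans were compared, not exons or strand, and in a build other than that of the counts. Mixing of reads was thus not tested. The same limit holds for each of the 12 among 85 matched members whose span overlaps that of a protein-coding gene. Among them are the low-count genes Rps6, which overlaps Dennd4c, and Rps9, which overlaps Pirb. Rps19bp1 stood at 14.4, 19.4 and 13.9 CPM in aged rats and 12.6, 14.1 and 14.7 CPM in adult rats, and aged replicate 2 was the highest. Rpl6, a large subunit protein, stood at 308, 358 and 281 CPM in aged rats and 295, 320.4 and 308 CPM in adult rats and had the lowest median correlation with the other abundant members, 0.527. Rps3a, which contacts an initiation factor on the small subunit, stood at 345, 527 and 352 CPM in aged rats and 441, 367 and 414 CPM in adult rats, a log2 fold change of 0.0018 ± 0.19. The sign of Rps3a turned in 6 of the alternatives and that of Rpl6 without aged replicate 2.

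**Figure D5:**
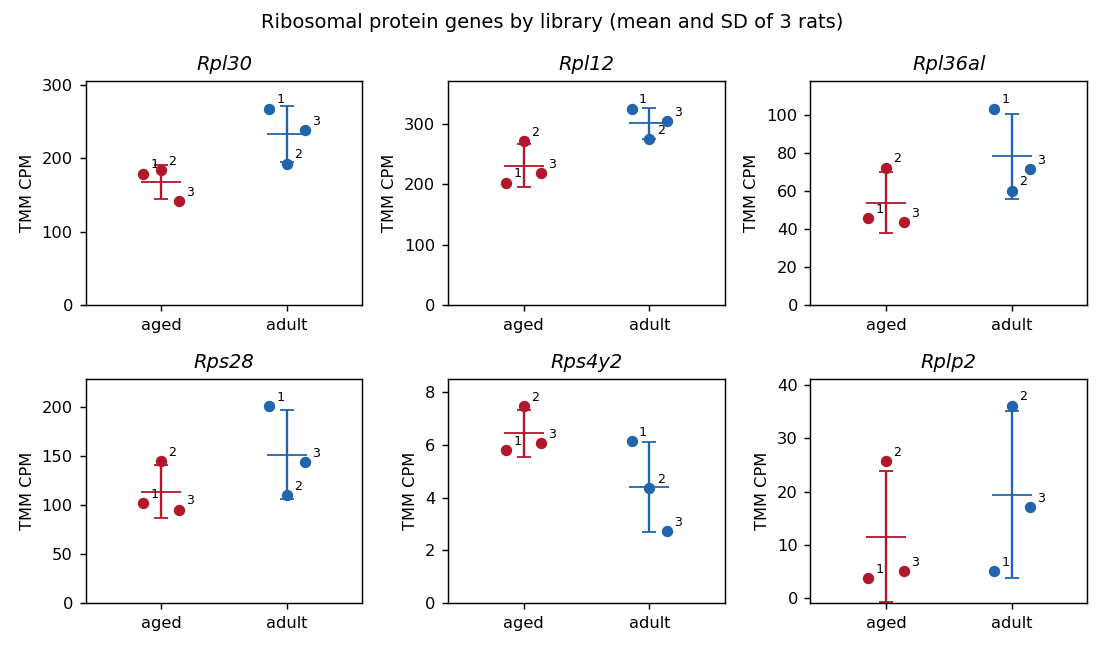
CPM per library of 6 members, aged left and adult right in each panel, with replicate numbers, and with bars at the mean ± SD of 3 rats. Aged and adult values do not overlap for Rpl30 and Rpl12, overlap for Rpl36al, Rps28 and Rps4y2, and are spread between 3.66 and 36.2 CPM for Rplp2, where the ages overlap.

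Members also known for other roles or for disease were looked at singly. Rpl5, which with Rpl11 binds Mdm2 and stabilises p53 when ribosome assembly is disturbed, stood at 455, 576 and 431 CPM in aged rats and 584, 474 and 555 CPM in adult rats. Rpl11 stood at 208, 342 and 211 CPM in aged rats and 337, 238 and 285 CPM in adult rats. In both, aged replicate 2 and adult replicate 1 were the highest libraries and aged replicates 1 and 3 the lowest. Rpsa, which is also known as a laminin receptor, stood at 459, 688 and 485 CPM in aged rats and 655, 599 and 603 CPM in adult rats. Rps27a, made as a fusion with ubiquitin, stood at 254, 450.1 and 256 CPM in aged rats and 402, 257 and 369 CPM in adult rats. Rps19, mutated in some patients with Diamond-Blackfan anaemia, stood at 102, 185 and 91.0 CPM in aged rats and 209, 119 and 163 CPM in adult rats, the widest range of the abundant members. In these 3 genes too, the highest library was aged replicate 2 or adult replicate 1 and the lowest aged replicate 1 or 3, and the ages overlapped. Rps19bp1 and the low-count row Rps6 differed in order, with adult replicate 1 as their lowest library, and Rpl22 was highest in adult replicates 1 and 3.

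Other ribosome genes lie outside the symbol rule. Fau, a fusion of a ubiquitin-like protein with a small subunit protein, stood at 305, 434 and 281 CPM in aged rats and 423, 328 and 376 CPM in adult rats. In Fau, aged replicates 1 and 3 were the lowest libraries and aged replicate 2 and adult replicate 1 the highest, as in most members. Rack1, a scaffold protein of the small subunit, stood at 283, 358 and 256 CPM in aged rats and 311, 311 and 303 CPM in adult rats. For Rack1, aged replicate 2 was the highest library and aged replicate 3 the lowest, and the ages overlapped.

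A list of 25 further genes held 16 genes of translation and associated proteins, such as elongation factors, whose mRNAs are known or held to carry the tract in mammals. The other 9 were genes of the mTOR pathway, such as Mtor and the S6 kinases, or of La-related proteins, such as Larp1. Over the 25, 0 passed the test and 15 had a log2 fold change below 0. Over the 16, 11 were below 0, the median was -0.04, and the median deviation was -0.04, 0.15 and -0.14 in aged replicates 1 to 3 and 0.13, -0.09 and 0.06 in adult replicates 1 to 3, with the same sign as the ribosomal protein genes in every library. Over the 9 mTOR pathway and La-related genes, 4 were below 0 and the median was 0.02. This division of the list was made after its values were seen. Over 50 ribosome biogenesis genes, 0 passed the test, 16 were below 0 and 34 above, and the median was 0.06. Nop56, a core protein of the particles that guide methylation of ribosomal RNA, stood at 108, 114 and 119 CPM in aged rats and 100.0, 90.4 and 82.6 CPM in adult rats, a log2 fold change of 0.32 ± 0.12 with an edgeR adjusted p of 0.99996. Ncl, which encodes nucleolin, stood at 351, 346 and 327 CPM in aged rats and 312, 290.1 and 306 CPM in adult rats. Nop56, Ncl and Rrs1 were the 3 of 50 biogenesis genes (6.0%) with all aged values above all adult values, against 3.13% of all genes, and 0 had all aged values below.

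Mitochondrial ribosomal proteins form the separate ribosome of the mitochondrion. Of 76 such rows 73 were tested, 0 passed the test, 42 were below 0, and the median log2 fold change was -0.02. Their median deviation was -0.08, 0.21 and -0.21 in aged replicates 1 to 3 and 0.14, -0.15 and 0.08 in adult replicates 1 to 3, with the same sign as the cytosolic family in every library. No test of the difference between these families was made.

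Libraries also differed in transcripts of other cell types. The 6 oligodendrocyte markers summed to 6626 to 8816 CPM in aged rats and 11232 to 16838 CPM in adult rats. The 5 meningeal fibroblast markers summed to 70.0 to 142 CPM in aged rats and 166 to 309 CPM in adult rats, and the ages did not overlap for either list. The 7 choroid plexus markers, 1 of them at 0 in every library, summed to 9.78 to 73.7 CPM in aged rats and 25.1 to 2145 CPM in adult rats, and the 9 liver markers to 33.7 to 282 CPM in aged rats and 31.3 to 583 CPM in adult rats. In aged replicate 2 and adult replicate 1, where the ribosomal sums were highest, the choroid plexus markers summed to 73.7 and 2145 CPM, the meningeal markers to 142 and 309 CPM, the highest of their age groups, the liver markers to 282 and 31.3 CPM and the oligodendrocyte markers to 6991 and 16838 CPM. The 5 neuron markers summed to 6584, 4760 and 5002 CPM in aged rats and 4954, 5105 and 5643 CPM in adult rats. Aged replicate 2 and adult replicate 1 were thus the lowest of their age groups for neuron markers. The ages overlapped for the astrocyte, microglia, endothelium and blood markers. Astrocyte markers summed to 2112 to 2490 CPM in aged rats and 2084 to 2616 CPM in adult rats. Microglia markers summed to 148 to 227 CPM in aged and 138 to 204 CPM in adult rats. Endothelium markers summed to 156 to 234 CPM in aged and 211 to 293 CPM in adult rats. The part of all these cell types in the ribosomal values was not tested.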

How the data were processed

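The authors deposited raw counts per gene symbol and FPKM values for 6 libraries. Rnor_6.0 is the genome named, per the submitters' processing notes; the sources used here do not give aligner, counter or strand setting. In the deposited tables FPKM equals count over library total and a constant length for each gene, and gene lengths were recovered from these. Genes that passed filterByExpr were scaled by TMM and tested with edgeR 4.0.16 (quasi-likelihood F test, age as the only term, R 4.3.3), aged minus adult, with Benjamini-Hochberg adjustment over 14588 genes. A standard error is the log2 fold change over the square root of F. Deviations used log2(CPM + 0.5). Alternatives were DESeq2 1.42.0, limma 3.58.1 (voom, and log2 FPKM with pseudocounts of 1 and 0.1), other scalings and filters, a loess offset on log2 gene length (span 0.5), a replicate block and leaving out each library. The fits were tested on simulated counts. With 3 rats a group an exact two-sided permutation test cannot go below p = 0.1, so none was run. Members and gene lists were chosen with earlier results of these data known. The named members are those with the smallest p in each direction, those whose groups did not overlap, extremes of level or spread, paralog pairs and members of known role. Rpl7a, Rpl8, Rpl18, Rpl30l1, Rps9 and the genes named from other lists (Fau, Rack1, Nop56, Ncl, Rrs1) were chosen after their values were seen. A C with 4 or more pyrimidines after it counted as a tract.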

Additional observations from a re-analysis of the deposited data

How the results depend on the processing

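No member was called under any alternative run. These were 3 other scalings, a length offset, 2 other filters, DESeq2, limma-voom, robust quasi-likelihood, 2 fits of log2 FPKM, a replicate block, an adjusted p under 0.1 and each library left out. Over all genes, DESeq2 called 31, limma on log2(FPKM + 1) called 2, and leaving out single libraries gave 0 to 1. Leaving out single libraries moved the number of members at an unadjusted p under 0.05 between 0 and 43, the number with non-overlapping groups between 3 and 71, and the median between -0.38 and -0.04. The log2 fold change of Rps3a turned with limma-voom (-0.021), log2(FPKM + 1) and log2(FPKM + 0.1) (-0.0061 each) and the replicate block (-0.024), and without single libraries it ranged from -0.22 to 0.13. That of Rpl6 ranged from -0.058 to 0.11 there. The cause was not tested. Same-numbered libraries had correlations of deviations of -0.20, -0.13 and 0.05. With 3 libraries per age these values cannot show whether replicate numbers pair the libraries. With the replicate block 0 members were called, 2 had an unadjusted p under 0.05 (Rpl30 and Rplp2, not Rpl12), against 3.21% of all genes, and the median over the members was -0.18. With 3 rats a group and a median standard error of 0.20, differences of this size were not detectable beyond the spread between rats.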
